A study of Mus musculus with 21 samples.

Results

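In fetal male germ cells without Tex15, RNA of some transposable elements was higher than in heterozygous cells, and the size of that knockout effect can be compared between 2 embryonic ages. The quantity described here is the knockout effect at embryonic day 18.5 minus the knockout effect at day 16.5. For each repeat, the log2 fold change of knockout (KO) over heterozygous (HT) cells was taken at each age, and the E16.5 value was subtracted from the E18.5 value. A value of 1 means that the KO over HT ratio doubled from E16.5 to E18.5, and a value of 0 that it stayed the same. The repeats of both ages were joined by name, which gave 52 of 53 repeat families and 1133 of 1217 repeat names with enough reads to test. Of the 21 libraries of the study, the 12 from these ages entered, 3 in each of 4 groups. The groups were Tex15HT cells at E16.5, Tex15KO cells at E16.5, Tex15HT cells at E18.5 and Tex15KO cells at E18.5. All were male germ cells of a mixed strain background, sorted by their Oct4-GFP fluorescence, so every group carries that reporter and the control is heterozygous, not wild type. The 9 postnatal libraries, which include the only wild type group, entered only 2 of the alternative fits.

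Transposable elements make up a large part of the mouse genome, and some of them can still copy themselves. L1 is the main active LINE (long interspersed element), which moves by reverse transcription of its own RNA and needs no long terminal repeat (LTR). The endogenous retroviruses are LTR elements of the classes ERV1, ERVK and ERVL, and short elements such as B1 (in the Alu family), B2 and B4 depend on the L1 machinery. Fetal male germ cells erase most of their DNA methylation and then restore it late in gestation, and small RNAs of the PIWI pathway (piRNAs) direct the restored methylation to young elements. TEX15 is a nuclear protein of these cells that takes part in this piRNA-directed silencing.

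The libraries were similar in depth, with 18291411 to 22292275 counts in the tables of genes and repeat names and 7877665 to 11884109 counts in genes. They differed in the number of genes listed at 0. At E16.5 these were 5815, 4421 and 3507 genes in HT and 3969, 4043 and 3410 in KO. At E18.5 they were 2359 to 2687 genes, below every E16.5 library, and the part of this difference in the repeat values was not tested. Tex15 itself was at 807 to 1199 counts per 1000000 gene counts (CPM) in the 6 HT libraries and at 3.14 to 4.26 in the 6 KO libraries, so each library matched its genotype label. The germ cell marker Ddx4, an RNA helicase, was at 289 to 1180 CPM in every library. Over both genotypes, stromal genes summed to 85.3 to 307 CPM at E16.5 and to 408 to 477 at E18.5. Endothelial genes summed to 107 to 190 CPM at E16.5 and to 229 to 299 at E18.5. Sums of the Sertoli and Leydig lists overlapped between the ages, and the median differences of all lists are given with the processing. Markers of macrophages and blood (19 genes) summed to 34.5, 66.6 and 81.0 CPM in HT and 70.2, 75.9 and 122 in KO at E16.5. At E18.5 they summed to 94.0, 102 and 105 in HT and to 129, 154 and 162 in KO, so that KO lay above HT without overlap at that age. Ptprc, the common antigen of white blood cells, was listed at 0 in HT replicate 1 and KO replicate 1 at E16.5 and was at 2.57 to 2.91 CPM in HT and 3.67 to 4.36 in KO at E18.5. The part of somatic and blood cells in the repeat values was not tested. The E16.5 libraries stood apart from each other. Genes of the fetal germ cell and pluripotency list (21 genes) summed to 6950 CPM in HT replicate 1, to 4129 and 2448 in HT replicates 2 and 3, and to 3895, 4060 and 2110 in KO replicates 1, 2 and 3. At E18.5 the 6 libraries lay between 1012 and 1893. HT replicate 1 at E16.5 was thus the high end of this list and KO replicate 3 the low end of its age, and results that rest on these libraries are also given without them. All values for repeats are relative to gene counts after TMM scaling. The TMM factors were 0.809 to 0.976 at E16.5 and 1.08 to 1.17 at E18.5, and each age came from its own tables, so a change with age cannot be told apart from any difference between the tables.

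L1 showed the largest difference of the knockout effect among the tested families. In HT cells the level of L1 was 24911, 24525 and 25732 alignments per 1000 gene counts at E16.5 and 25290.2, 23516 and 26496 at E18.5. In KO cells it was 29884, 28896 and 47033 at E16.5 and 89326, 75505 and 108534 at E18.5. The HT libraries of both ages overlapped, the E16.5 KO libraries lay above them with replicate 3 apart from the others, and all 3 E18.5 KO libraries lay above every other library. The KO over HT fold rose from 1.41 at E16.5 (log2 0.49, SE 0.22, edgeR adjusted p = 0.217) to 3.63 at E18.5 (log2 1.86, SE 0.23, edgeR adjusted p = 4.53e-14). The difference was 1.37 on the log2 scale (SE 0.31, 95% interval 0.75 to 1.98, n = 3 per group, edgeR quasi-likelihood adjusted p = 0.00041). With age, the L1 family moved by 0.003 in HT cells and by 1.37 in KO cells. The young and other rodent L1 names moved in HT cells by medians of 0.36 and 0.43, beside 0.30 for all names, so family and names differ in this. A read can be counted at many copies in the family tables: these held 13.0 to 15.8 alignments per count of the other tables in HT libraries, 15.6 to 25.0 in E16.5 KO libraries and 38.1 to 53.5 in E18.5 KO libraries. Among repeat names, the summed young L1 names were at 35744 CPM in HT and 68703 in KO at E18.5. The other rodent L1 names were at 102389 and 137930, and the ancient ones at 55251 and 58849. The largest difference among L1 names was 1.32 and the largest log2 fold change at E18.5 was 1.74, both below the family values. The part of multiple counting in the L1 family value was not tested, and the family fold is one of alignments, not of reads.

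ERV1, the class of the murine leukaemia virus type and related elements, was the other family whose knockout effect differed. Its level in HT cells was 37.2, 58.6 and 55.8 alignments per 1000 gene counts at E16.5 and 40.1, 37.1 and 43.8 at E18.5. In KO cells it was 79.0, 81.0 and 113 at E16.5 and 143, 126 and 141 at E18.5. KO lay above HT without overlap at each age, and the E18.5 KO libraries lay above the E16.5 KO libraries. The fold was 1.80 at E16.5 (log2 0.85, SE 0.14, edgeR adjusted p = 5.92e-08) and 3.39 at E18.5 (log2 1.76, SE 0.14, edgeR adjusted p = 1.92e-28). The difference was 0.91 (SE 0.20, 95% interval 0.52 to 1.29, edgeR adjusted p = 0.000237), although scaling to the sum of all family alignments, 86.6 to 95.6% of which were L1, turned it to -0.35 without a call. With age, ERV1 rose in KO cells by 0.58 (edgeR adjusted p = 0.00032), and its value in HT cells was -0.33 (edgeR adjusted p = 0.0621).

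ERVK, the class of the intracisternal A particles and of the ETn elements, was raised in KO cells at both ages, by a log2 fold change of 1.19 at E16.5 (SE 0.17, edgeR adjusted p = 1.66e-09) and of 1.58 at E18.5 (SE 0.18, edgeR adjusted p = 1.71e-16). Its levels in alignments per 1000 gene counts were 1467, 1387 and 1194 in HT and 2758, 2893 and 3554 in KO at E16.5. At E18.5 they were 909.5, 739 and 955 in HT and 2478, 2618 and 2715 in KO. Both KO groups lay above both HT groups, and the E18.5 values were lower than the E16.5 values of the same genotype in every library. ERVK fell with age in HT cells by 0.64 (edgeR adjusted p = 0.00178), while its value in KO cells was -0.24 (edgeR adjusted p = 0.362). The difference of the knockout effect was 0.40 (SE 0.24, edgeR adjusted p = 0.868), with a 95% interval from -0.08 to 0.88 that holds both no change and a gain close to that of ERV1; scaled to all family alignments it was -0.87.

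**Figure D1:**
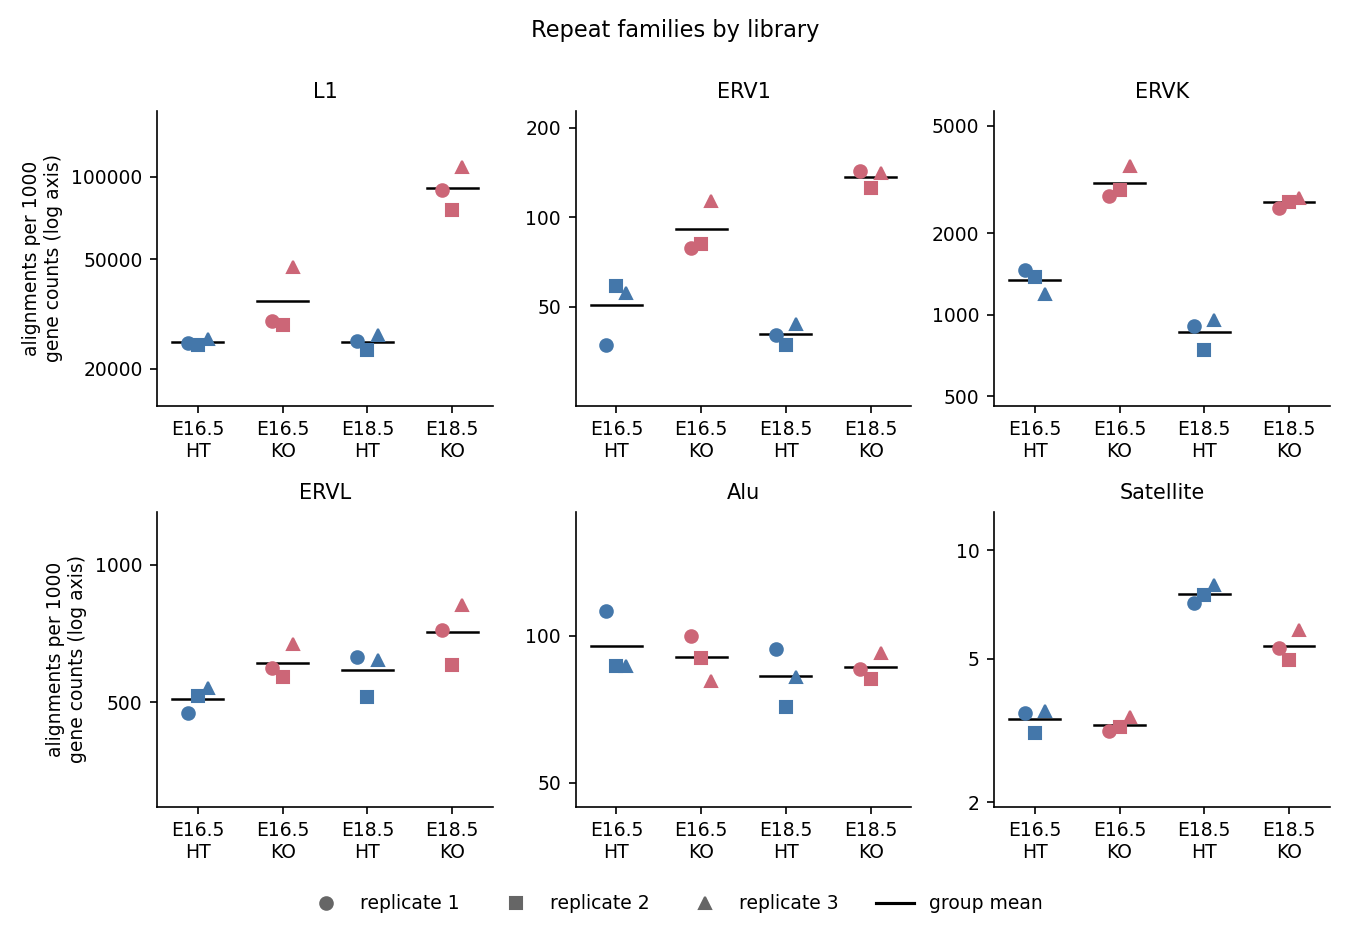
Levels of 6 repeat families in each of the 12 libraries, in alignments per 1000 gene counts on log axes, with HT in blue and KO in red, a symbol for each replicate and a bar for the group mean. In L1 the E18.5 KO libraries (75505 to 108534) stand above all others and the HT libraries (23516 to 26496) lie level at both ages, whereas in ERVK the KO libraries are high at both ages.

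Counted over all families, 2 of 52 had a different knockout effect at the 2 ages (3.85%), and both gained at E18.5. The knockout effect itself passed for 4 families at E16.5 (7.69%: ERVK, ERV1 and the families named NA and RNA) and for 6 at E18.5 (11.5%: L1, ERV1, ERVK, NA and Other, which rose, and Satellite, which fell). An unadjusted p under 0.05 for the difference was found in 5 families. Besides L1 and ERV1 these were NA (0.48, edgeR adjusted p = 0.17), RNA (-0.47, edgeR adjusted p = 0.166) and Satellite (-0.42, edgeR adjusted p = 0.189). The retroviral class ERVL, which holds the MERVL elements, had a difference of 0.02 (SE 0.22) and the MaLR elements, its old nonautonomous relatives, of 0.09 (SE 0.20). The short elements Alu, B2 and B4 were at 0.14, 0.09 and 0.02, each with an SE of 0.19 to 0.20, and the ancient LINE family L2 was at -0.07 (SE 0.18). Intervals of this width leave room for differences of up to 0.53 in Alu and 0.46 in ERVL, so these values do not show that the effect was equal at both ages. The edgeR fit gave the families an infinite prior, so each family's SE and p rest on a spread shared among families along their abundance and not on its own replicates. L1 lay far above every other family in level, so it had no family of like abundance. Scaled to all family alignments, the median of all families moved by -1.31, and the calls became 1 higher (L1, 0.10) and 50 lower. Without TMM factors, 0 families passed in edgeR (3 with an unadjusted p under 0.05), with L1 at 1.29 and ERV1 at 0.85.

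The comparison of single repeat names separates subfamilies that the families pool. Of 1133 names, 3 had a different knockout effect at the 2 ages (0.265%) and all 3 gained at E18.5: L1Md_A, MMETn-int and MMERGLN-int. By comparison the knockout effect passed for 4 names at E16.5 (0.353%) and for 103 at E18.5 (9.09%), all of them higher in KO. Both ages contributed 6 libraries to these counts, and over all names the median difference was 0.03, between a median effect of 0.17 at the earlier age and of 0.18 at the later.

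L1Md_A, 1 of the young L1 subfamilies of the mouse, had the largest difference among the 3. It was at 2473, 2738 and 3138 CPM in HT and at 3017, 2974 and 4474 in KO at E16.5. At E18.5 it was at 3248, 2872 and 3016 in HT and at 10306, 8064 and 10189.9 in KO. The E16.5 groups overlapped, KO replicate 3 being the highest of them, and the E18.5 KO libraries lay above all other libraries. Its fold was 1.25 at E16.5 (log2 0.33, SE 0.16, edgeR adjusted p = 0.454) and 3.13 at E18.5 (log2 1.64, SE 0.17, edgeR adjusted p = 1.01e-07), a difference of 1.32 (SE 0.23, 95% interval 0.84 to 1.79, edgeR adjusted p = 0.00526). With age it moved by 0.13 in HT cells and by 1.45 in KO cells (edgeR adjusted p = 2.6e-06). All 9 ratios of an E18.5 KO library to an E18.5 HT library (2.48 to 3.59) were above all 9 of E16.5 (0.948 to 1.81). In bulk RNA, fewer cells that express an element and less of its RNA per cell cannot be told apart, here and in every value below.

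MMETn-int is the internal part of the early transposons (ETn), ERVK elements that are mobile in the mouse with the help of the related MusD. It was at 1051, 844 and 959.6 CPM in HT and at 1021, 991 and 1592 in KO at E16.5. The E18.5 libraries held 875, 765 and 897 in HT and 1955, 2082 and 2727 in KO. The E16.5 groups overlapped except for KO replicate 3, and at E18.5 the groups stood apart. Its difference was 1.08 (SE 0.24, 95% interval 0.58 to 1.57, edgeR adjusted p = 0.0479), from a log2 fold change of 0.34 at E16.5 to 1.41 at E18.5.

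MMERGLN-int is the internal part of an ERV1 retrovirus of the mouse. Its levels were 692, 1037 and 1076 CPM in HT and 1141, 1191 and 1652 in KO at E16.5, and 699.8, 667 and 745 in HT and 2197, 2005 and 2087 in KO at E18.5. KO lay above HT without overlap at both ages, by less at E16.5. The log2 fold change went from 0.51 (edgeR adjusted p = 0.252) to 1.57 (edgeR adjusted p = 1.47e-07), a difference of 1.07 (SE 0.23, 95% interval 0.59 to 1.54, edgeR adjusted p = 0.0479). With age it rose in KO cells by 0.66 (edgeR adjusted p = 0.00538), and in HT cells its value was -0.41 (edgeR adjusted p = 0.07).

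**Figure D2:**
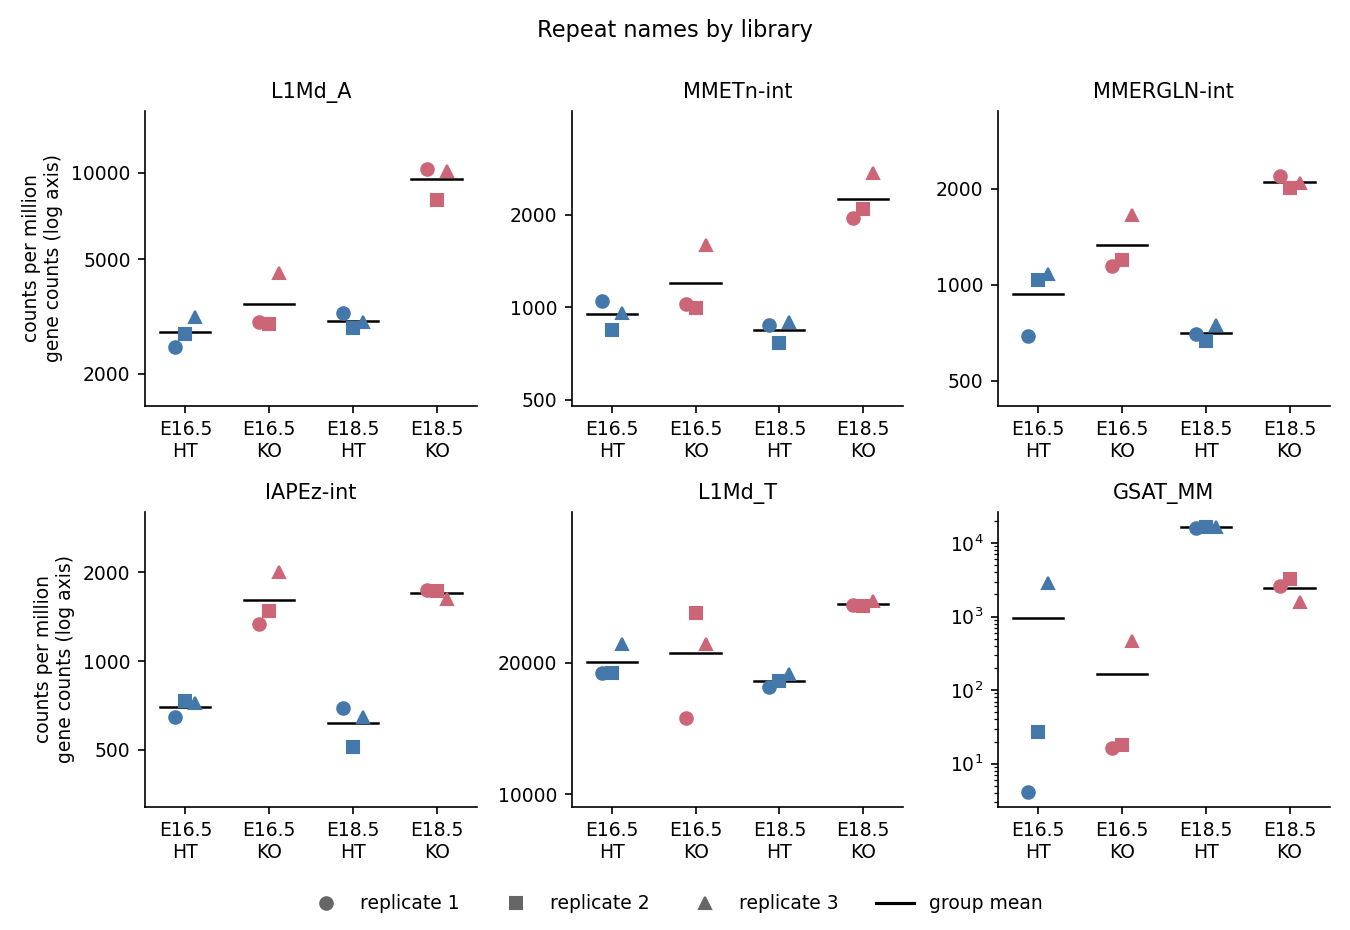
Levels of 6 repeat names in each of the 12 libraries, in CPM on log axes, with HT in blue, KO in red, a symbol for each replicate and a bar for the group mean. L1Md_A, MMETn-int and MMERGLN-int are high in the E18.5 KO libraries, IAPEz-int is high in KO at both ages, and GSAT_MM differs by orders of magnitude among the E16.5 libraries.

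The calls of these names depended on the fit. When the names were fitted in the same model as the genes, whose spread is wider, the values stayed at 1.32, 1.08 and 1.07 but 0 of 1133 names passed in edgeR (20 with an unadjusted p under 0.05), and without TMM factors 0 passed as well (18 unadjusted). With the replicate number as a block at both ages 38 names passed, and with the block at E18.5 only, a fit chosen after seeing the data, 0 passed in edgeR (31 unadjusted), with L1Md_A at 1.31 (edgeR adjusted p = 0.0915). L1Md_A passed in each of the 12 fits that left out 1 library, with a difference of 1.21 to 1.53. MMETn-int passed in 4 of them (0.92 to 1.33 over all 12) and MMERGLN-int in 3 (0.95 to 1.25 over all 12). Both ranges stay far above 0, and it is the adjusted p that crosses the threshold.

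Among the other young L1 names, none passed for the difference in edgeR, and 2 had an unadjusted p under 0.05. These were L1Md_Gf (1.05, SE 0.35, edgeR adjusted p = 0.775) and L1Md_T (0.51, SE 0.22, edgeR adjusted p = 0.999). L1Md_Gf rose in KO from 257, 235 and 525 CPM at E16.5 to 1013, 922 and 1202 at E18.5, and in HT it was at 123, 202 and 306 and then at 342, 306 and 290.3. L1Md_T was at 18964, 18972 and 22114 in HT and at 14970.0, 25962 and 22104 in KO at E16.5, so its KO libraries at that age fell on both sides of the HT libraries. At E18.5 it was at 17596, 18121 and 18820.0 in HT and at 27047, 26939 and 27715 in KO, without overlap. The remaining L1Md_F, L1Md_F2 and L1Md_F3, of the older F type, had differences of 0.59, 0.48 and 0.48. All 6 young names passed the KO against HT comparison at E18.5, beside 103 of all 1133 names. At E16.5 0 of 6 passed in edgeR, where 4 had an unadjusted p under 0.05. The medians of the young names were 1.21 at E18.5 and 0.57 at E16.5.

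Among the 3 groups of L1 names, the median difference of the knockout effect was highest in the young names and lowest in the ancient ones. The 6 young names had a median of 0.55 (0.48 to 1.32), and 6 of 6 were above 0. The 28 other rodent L1 names, the Lx, L1VL, L1_Mus and L1_Mur elements, had a median of 0.20 (0.01 in Lx8 to 0.33 in L1VL1), and 28 of 28 were above 0. The 77 ancient L1 names, shared with other mammals, had a median of -0.05, and 16 of 77 were above 0, beside 654 of all 1133 names. In the same order, the KO over HT medians were 0.57, 0.34 and 0.15 at E16.5 and 1.21, 0.54 and 0.11 at E18.5. Summed over the 6 young names, the level was 33598 ± 4886 (SD, n = 3) CPM in HT and 41162 ± 8767 in KO at E16.5, and 35744 ± 1968 in HT and 68703 ± 6281 in KO at E18.5.

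The intracisternal A particles (IAP), ERVK retroviruses that are a main source of new LTR insertions in the mouse, gave 2 of the 4 names that passed the KO against HT comparison at E16.5, IAPEz-int and IAPLTR1_Mm, out of 16 IAP names tested. IAPEz-int, their principal internal part, was at 644, 731 and 721 CPM in HT and at 1337, 1485 and 2012 in KO at E16.5, and at 691, 513 and 645 in HT and 1741, 1736 and 1624 in KO at E18.5. KO and HT did not overlap at either age and the KO libraries of the 2 ages overlapped with each other. The log2 fold change was 1.21 at E16.5 (SE 0.16, edgeR adjusted p = 1.29e-05) and 1.46 at E18.5 (SE 0.16, edgeR adjusted p = 1.47e-07). The difference was 0.26 (SE 0.22, 95% interval -0.19 to 0.70, edgeR adjusted p = 0.999), an interval whose upper end lies below the estimates of the 3 names that passed. Whether IAPEz-int and L1Md_A differ in this quantity was not tested as such.

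The other IAP names had larger differences than IAPEz-int, except IAP-d-int at 0.18 (SE 0.28). IAPLTR1_Mm, an IAP long terminal repeat, passed the KO against HT comparison at both ages (log2 fold changes of 1.37 and then 1.93), with a difference of 0.56 (SE 0.24, edgeR adjusted p = 0.999). IAPLTR4_I had a difference of 1.52 but the wide SE of 0.53 (edgeR adjusted p = 0.782). Its E16.5 HT libraries held 5.10, 32.5 and 37.0 CPM, with HT replicate 1 far below the others, against 38.8, 39.4 and 110 in KO. At E18.5 it was even among replicates, at 21.7, 19.2 and 19.8 in HT and 149, 146 and 143 in KO. Over all 6 internal IAP names the median difference was 0.62 and over the 10 IAP LTR names 0.64, with 16 of 16 above 0, beside 654 of all 1133 names. Of these IAP names 0 passed in edgeR (4 and 7 with an unadjusted p under 0.05). Their KO over HT medians were 0.71 and 0.46 at E16.5 and 1.34 and 1.11 at E18.5.

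In 3 further groups of active LTR elements 1 name passed and nearly all values were above 0. The 5 ETn and MusD names had a median difference of 0.41, all above 0, with MMETn-int passing. ETnERV-int, an internal part of the MusD type, was at 0.62 (SE 0.34). Among the 9 MMERVK10C and RLTR10 names, betaretroviral elements, the median was 0.44 with 8 of 9 above 0, led by RLTR10-int at 0.75 (SE 0.26) and MMERVK10C-int at 0.73 (SE 0.35). The 10 names of the murine leukaemia virus type and of VL30, retrovirus-like elements of the ERV1 class, had a median of 0.61 with all above 0, from MURVY-LTR at 0.0002 to MuRRS-int at 1.03 (SE 0.36). Over all 1133 names the difference was above 0 in 654. Beside 103 of all 1133 names, 22 of the 24 names in these 3 groups passed the KO against HT comparison at E18.5. Among them, RLTR10-int (0.85) and RLTR4_MM-int (0.97), also passed at E16.5, and with IAPEz-int and IAPLTR1_Mm these were the 4 names that passed there. All 4 were among the 103 of E18.5, which is 100% of the first list and 3.88% of the second.

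**Figure D3:**
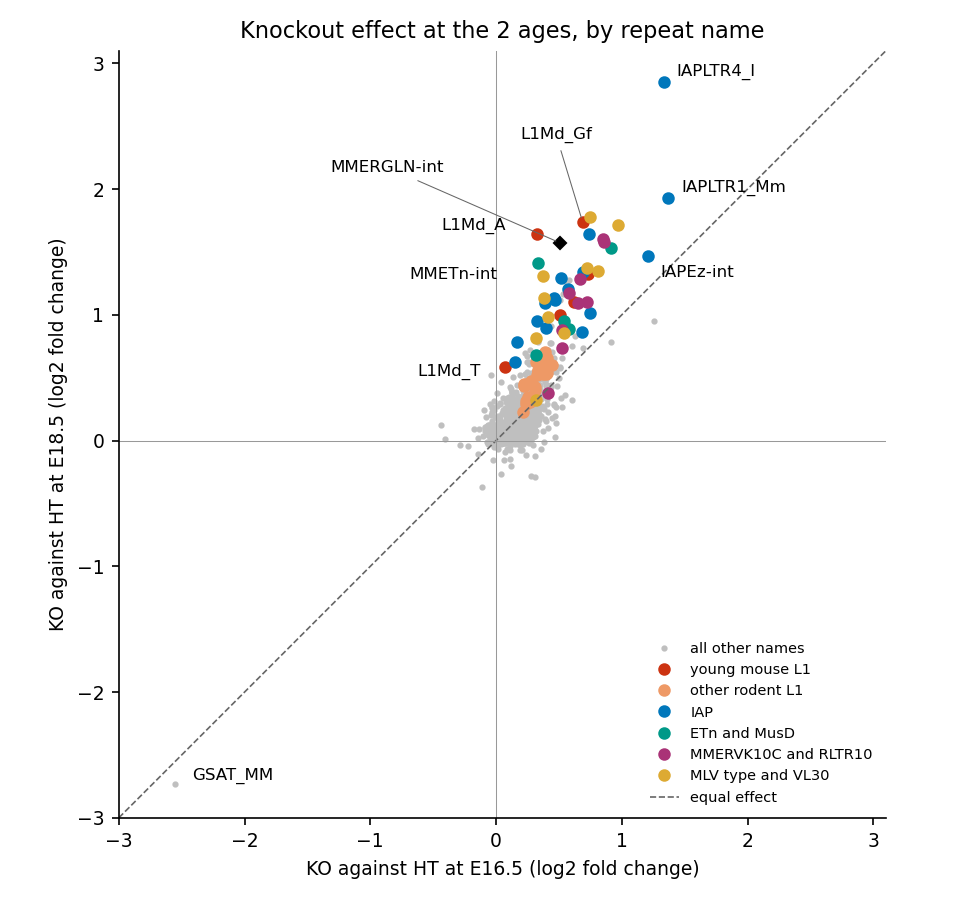
Log2 fold change of KO over HT at E16.5 (x axis) and at E18.5 (y axis) for the 897 repeat names with a mean of at least 10 CPM, coloured by repeat group, with a dashed line where both are equal and a black diamond for MMERGLN-int. L1Md_A (0.33, 1.64) lies far above the line, IAPEz-int (1.21, 1.46) close to it, and most names without colour near the origin.

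Across names, the knockout effects of the 2 ages, which come from different libraries, were related. Over all 1133 names Pearson's r was 0.50 and Spearman's rho 0.44. Over the 897 names with a mean of at least 10 CPM Pearson's r was 0.78 and Spearman's rho 0.60, over the 40 IAP, ETn, RLTR10 and MLV type names 0.78 and 0.74, and over the 111 L1 names 0.58 and 0.71. Names of 1 library share its depth and composition and are not independent, so these are descriptions. The 103 names raised at E18.5 had a median log2 fold change of 0.82 there and of 0.43 at E16.5. At E16.5, 102 of these 103 were above 0, beside 982 of all 1133 names. The 103 were selected by their values at E18.5, which by itself favours a larger median at that age.

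Changes with age also set the groups of elements apart. Between E16.5 and E18.5, 252 names changed in HT cells (22.2%, 247 of them higher) and 369 in KO cells (32.6%, 364 higher). The median change of all names was 0.30 in HT and 0.34 in KO. The young L1 names had medians of 0.36 in HT and 0.94 in KO, and the other rodent L1 names of 0.43 and 0.64. Internal IAP names were at -0.06 in HT and 0.58 in KO, and IAP LTR names at 0.09 and 0.66. The ETn and MusD names were at 0.47 and 0.97, the MMERVK10C and RLTR10 names at 0.22 and 0.59, and the MLV type and VL30 names at 0.14 and 0.80. In KO cells the median change of each of these 7 groups was above that of all names, and in HT cells both L1 groups and the ETn and MusD names were above it and the other 4 groups below it.

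The other large groups of elements had median differences near 0, with single names far from it. The 28 rodent SINE names, the B1, B2 and B4 elements, had a median of 0.07 and a range from 0.03 to 0.19. The medians were 0.01 in the 99 MaLR names (-1.50 to 1.02), 0.00 in the 35 other ERVL names (-0.26 to 0.20) and -0.03 in the 79 DNA transposon names (-0.39 to 0.39), with 0 passing in edgeR in each and 0 with an unadjusted p under 0.05. MERVL-int, the internal part of the retrovirus of early embryos, was at 0.22 (SE 0.21, edgeR adjusted p = 0.999), and passed KO against HT at E18.5 alone (0.49, edgeR adjusted p = 0.0341, against 0.27 at E16.5). Of the 34 names with an unadjusted p under 0.05, 24 were among the 74 names of 7 groups, the young and other rodent L1, IAP, ETn, RLTR10 and MLV type elements. The 28 other rodent L1 names gave 0 of these 24. MMERGLN-int, which passed, lies outside these groups. The 89 other rodent LTR (RLTR) names had a median of 0.11 (-0.24 to 0.73), and the 275 simple repeats a median of 0.02 (-1.09 to 1.99).

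**Figure D4:**
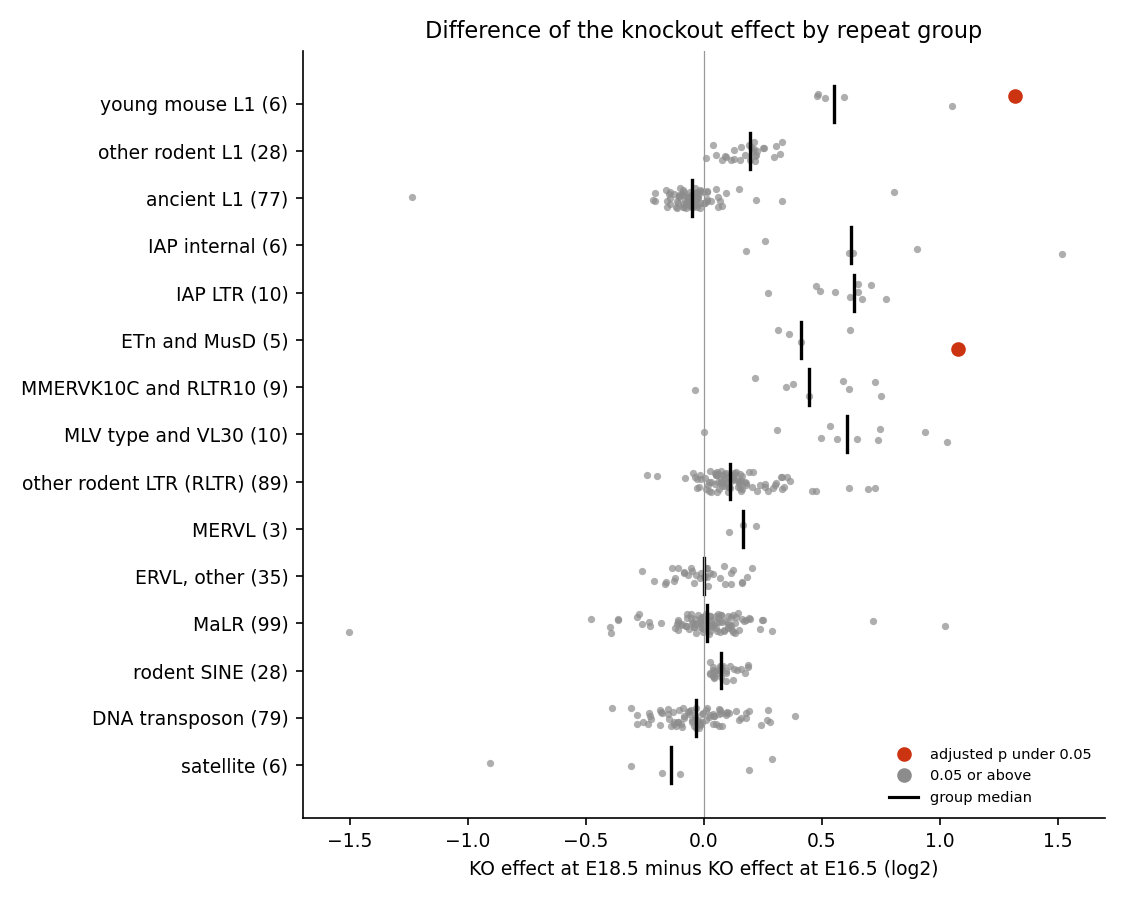
Difference of the knockout effect (E18.5 minus E16.5, log2) for each tested repeat name in 15 repeat groups, with the number of names in brackets, a black bar at the group median and red points for names with an adjusted p under 0.05. Young L1, IAP, ETn, RLTR10 and MLV type names lie at or to the right of 0 except RLTR10D (-0.04), and ancient L1, MaLR and DNA transposon names around 0.

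Repeats that lie apart in all 9 ratios give a view without a model. In 9 of 1133 names (0.794%) all 9 KO over HT ratios of E18.5 were above, or all below, the 9 of E16.5. Of these, 8 were higher at E18.5, among them L1Md_A, L1Md_T (1.43 to 1.58 against 0.677 to 1.37), IAPEy-int (1.39 to 2.20 against 1.03 to 1.28), MMETn-int (2.18 to 3.56 against 0.943 to 1.89) and MMERGLN-int (2.69 to 3.29 against 1.06 to 2.39). The others were 2 simple repeats and MER51-int, an old LTR element, at 0.547 to 2.21 CPM, and 1 name, ALINE, was lower at E18.5 (4.99 to 10.6 CPM). Among families it was 2 of 52 (3.85%). L1 was higher (2.85 to 4.62 against 1.12 to 1.92) and Satellite lower (0.622 to 0.839 against 0.883 to 1.11). In ERV1, which passed for the difference, the ratios of the ages overlapped (2.87 to 3.86 against 1.35 to 3.05). The 9 ratios of an age come from the same 3 HT and 3 KO libraries and are not independent.

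None of the satellite repeats passed for the difference in edgeR, and of the 6 satellite names 2, MMSAT4 (0.19) and SUBTEL_sa (0.29), were above 0. The Satellite family was at 3.54, 3.11 and 3.58 alignments per 1000 gene counts in HT and 3.16, 3.25 and 3.45 in KO at E16.5, and at 7.17, 7.51 and 8.01 in HT and 5.35, 4.98 and 6.02 in KO at E18.5. It rose with age in both genotypes, by 1.15 in HT (edgeR adjusted p = 1.07e-16) and 0.73 in KO (edgeR adjusted p = 2.04e-07), and at E18.5 KO lay below HT by -0.47 (edgeR adjusted p = 0.00183). The major satellite GSAT_MM, the repeat of the pericentromeric heterochromatin, was at 4.16, 26.9 and 2866 CPM in HT and 16.5, 17.7 and 460 in KO at E16.5. Both libraries numbered 3 were far above the others of their age. At E18.5 it was at 15925, 16764 and 16509 in HT and at 2585, 3245 and 1584 in KO, so that all E18.5 libraries but KO replicate 3 and KO replicate 1 were above all of E16.5. In the E18.5 HT libraries the whole Satellite family held 7170, 7511 and 8014 alignments per 1000000 gene counts, less than GSAT_MM alone. The family and this name are thus not counted alike, and neither stands for the other. The fitted difference of GSAT_MM was -0.18 with an SE of 1.51 (95% interval -3.27 to 2.92), and it was -6.13 without E16.5 HT replicate 3 and 3.09 without E16.5 KO replicate 3, so no direction can be given.

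The 2 E16.5 libraries at the ends of the fetal gene list bore on how many names passed. Without E16.5 HT replicate 1, 32 names passed (31 higher) and without E16.5 KO replicate 3, 23 did (all higher). Without both, a setting chosen after seeing the data, 47 names passed (46 higher), the 3 names above among them. L1Md_A was then at 1.61 (SE 0.26), MMERGLN-int at 1.43 and MMETn-int at 1.25, and in the families L1 was at 1.63, ERV1 at 1.27 and ERVK at 0.45 (edgeR adjusted p = 0.406). KO replicate 3 at E16.5 was also the KO library of its age with the most L1, ERV1 and ERVK alignments. HT replicate 1 was the lowest HT library of its age in L1Md_A, MMERGLN-int and ERV1, and the highest in MMETn-int and ERVK. Leaving out a low HT or a high KO library makes the E16.5 effect smaller, and so the difference larger, in itself. The part of the fetal genes in these values was not tested. The other 10 libraries, left out in turn, gave 1 to 7 names, the 7 without E16.5 HT replicate 3.

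**Figure D5:**
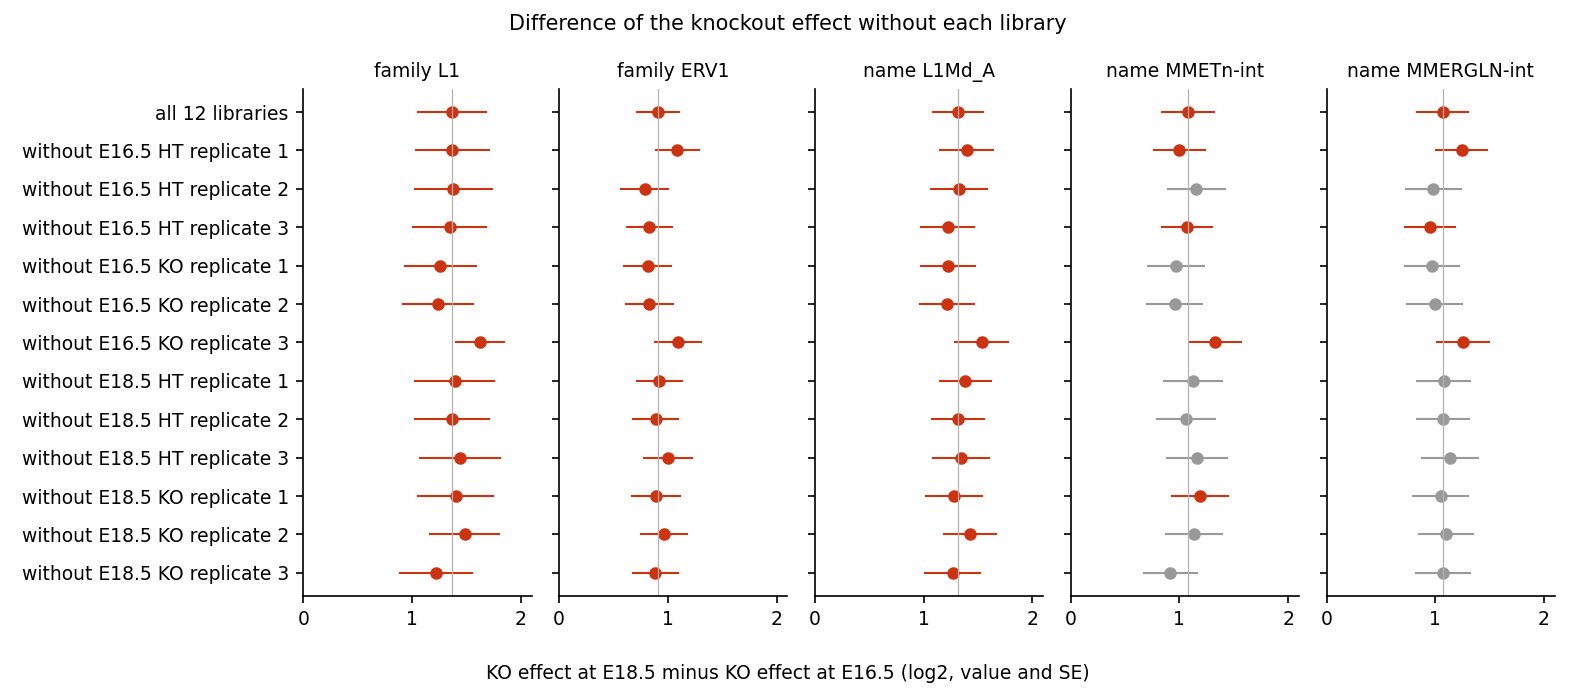
Difference of the knockout effect (log2, with its SE as a line) of the 5 repeats that passed, fitted with all 12 libraries and without each library in turn, in red where the adjusted p is under 0.05 and in grey otherwise. L1, ERV1 and L1Md_A are red in every row, while MMETn-int and MMERGLN-int turn grey without most of the libraries at similar values.

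Among 18554 genes, 0 had a different knockout effect at the 2 ages in edgeR (0%; 382 with an unadjusted p under 0.05), 4 in DESeq2 and 233 in limma-voom with library weights. In the piRNA pathway list 0 of 27 genes passed in edgeR (1 with an unadjusted p under 0.05), 10 were above 0 and the median was -0.14, beside -0.05 for all genes. Tdrd1 and Tdrd9, which bind PIWI proteins or act with them, were at -0.08 (SE 0.26) and -0.34 (SE 0.44). In the DNA methylation list 0 of 16 passed in edgeR (0 unadjusted) with a median of -0.12, and Dnmt3a, a de novo DNA methyltransferase, was at -0.21 (SE 0.28). Tex15 itself had a difference of 0.11 (SE 0.22), from -8.12 at E16.5 to -8.01 at E18.5. The gene fit had a biological coefficient of variation of 29.0%, against 16.1% in names and 12.1% in families.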

How the data were processed

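The authors' deposited files used here are count tables. Those of E16.5 and E18.5 hold read counts of 24495 gene rows and 1217 repeat names and, separately, alignment counts of 53 repeat families. RNA was amplified with NuGEN Ovation kits, per the labels' protocols. STAR, Bowtie, featureCounts, edgeR and mm9 are named, per the submitters' processing notes, with no version or role. The counting of reads on several copies and the use of strand are likewise not given in the sources used here, so names that overlap or resemble each other may share reads.

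Tables were joined by row name. Groups were fitted with edgeR 4.0.16 (R 4.3.3) as quasi-likelihood models of 4 groups over 12 libraries, with two-sided tests, Benjamini-Hochberg adjustment over each table and a threshold of 0.05. Library sizes and TMM factors came from genes. Families and names needed 10 counts in 3 libraries, genes passed filterByExpr (minimum count 10, minimum total 15). The SE is the log2 fold change divided by the square root of F. Names were fitted apart from genes, with a prior of 19.5 degrees of freedom beside 8 residual ones. The fits were tested on simulated data. limma 3.58.1 and DESeq2 1.42.0 were alternatives, and the plots were drawn in Python 3.11.15 (matplotlib 3.10.9). The labels do not say whether replicates are separate animals, so the spread between these libraries may be technical. The p-values of names rest in part on a spread shared among names, and those of families wholly on a shared spread. In these libraries 3 counts were worth 0.243 to 0.335 CPM.

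The members, repeat groups and gene lists were chosen with earlier results of these data known. Named were 10 fixed families, every passing family or name, the 2 most abundant names of each repeat group where the text needs them, L1Md_A, L1Md_T, IAPEz-int, MERVL-int and GSAT_MM, and Tex15 with the 2 most abundant genes of the piRNA and DNA methylation lists. Other names were picked after their values were seen. The 10 gene lists gave 0 calls each in edgeR. Their median differences were -0.14 (piRNA pathway), -0.12 (DNA methylation), 0.13 (H3K9 and KRAB repression), 0.29 (cell cycle), 0.78 (fetal germ cell and pluripotency), -0.38 (Sertoli), -0.02 (Leydig), -0.08 (stromal), -0.34 (endothelial) and -0.06 (macrophage and blood).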

Additional observations from a re-analysis of the deposited data

Results flagged for a closer look

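In 5 repeats the KO effect at E18.5 differed from that at E16.5 by a test of the difference itself, the contrast of the 4 groups in edgeR. The differences were 1.37 for the L1 family, 0.91 for the ERV1 family, 1.32 for L1Md_A, 1.08 for MMETn-int and 1.07 for MMERGLN-int (log2, n = 3 per group), all larger at E18.5. L1Md_A is an L1 element and MMERGLN-int an ERV1 element, so the 5 are not separate results. In the L1 family, MMETn-int and L1Md_A the HT level moved little with age (0.003, -0.17 and 0.13) and the KO level rose (1.37, 0.91 and 1.45). In ERV1 and MMERGLN-int the HT level was lower at E18.5 (-0.33 and -0.41, neither passing in edgeR) and the KO level higher (0.58 and 0.66). The E16.5 KO libraries are uneven in each of the 5, replicate 3 being the highest.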

How the results depend on the processing

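Over the named repeats and genes, 1685 of 1769 alternative values stayed on their side of the threshold (147 of these, none of them called, changed sign), 34 lost the call, 41 gained one and 9 reversed. Only repeats that passed could lose a call, and most of the 1769 values belong to rows that did not pass. MMETn-int lost its call in 15 of 29 alternatives, MMERGLN-int in 14 of 29 and L1Md_A in 3 of 29. L1 and ERV1 each lost it in 1 of 28. The count of families (2) became 0 without TMM factors, 51 with family totals as library sizes, 4 in limma-voom with library weights and 2 to 4 without single libraries (4 without E18.5 HT replicate 1). The count of names (3) became 0 without TMM factors, 1 with repeat totals, 69 in limma-voom with library weights, 0 fitted with the genes and 1 to 32 without single libraries. In 3 settings chosen after seeing the data it became 0 (replicate block at E18.5 only), 1 (limma-voom weights shared within an age) and 47 (without both E16.5 HT replicate 1 and KO replicate 3). The count of genes (0) became 4 in DESeq2 and 233 in limma-voom with library weights. With family totals as library sizes, Alu (-1.19), B2 (-1.22), B4 (-1.30), ERV1 (-0.35), ERVK (-0.87), ERVL (-1.28) and MaLR (-1.22) reversed, and most of those totals is L1. GSAT_MM ranged from -6.13 (without E16.5 HT replicate 3) to 3.09 (without E16.5 KO replicate 3), and was at 3.67 without both E16.5 HT replicate 1 and KO replicate 3. The cause of the other changes was not tested.

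The correlations of same-numbered HT and KO deviations over genes were 0.72, -0.14 and 0.85 at E16.5, so the numbers were not taken as pairs there, and 0.36, 0.29 and 0.12 at E18.5, where every pair was above the limit of 0.1. Over genes, the best partner had another number for HT replicate 2 at E16.5 (KO replicate 3, 0.26) and HT replicate 3 at E18.5 (KO replicate 2, 0.20). Over repeat names the same-numbered values were 0.73, 0.04 and 0.85 at E16.5 and 0.40, 0.18 and 0.20 at E18.5. There the best partner had another number only for HT replicate 2 at E16.5 (KO replicate 3, 0.07). With the replicate block within each age 5 families (3 higher) and 38 names (36 higher) passed, the 5 repeats of the report among them, and 0 genes in edgeR (1082 unadjusted). The 38 names include all 6 young L1 names, IAPLTR1_Mm and IAPLTR4_I, and also GSAT_MM (-1.81, edgeR adjusted p = 1.15e-24), and the families include Satellite (-0.42, edgeR adjusted p = 0.0223). In that fit the KO against HT comparison passed for 157 names at E16.5 and 254 at E18.5. The main fit has no block. With the replicate block at E18.5 only, the age where every pair was above the limit, L1 (1.35) and ERV1 (0.91) passed. There 0 names passed in edgeR (31 unadjusted), so L1Md_A, MMETn-int and MMERGLN-int lost their call (edgeR adjusted p = 0.0915, 0.308 and 0.308). The KO against HT comparison of that fit passed for 2 names at E16.5 and 107 at E18.5, 81 of the 103 among them. Each group had 3 libraries, which limits the precision.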

Other observations

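Gtsf1, a factor of the piRNA pathway, had the widest separation of its list, chosen here after its value was seen. Its KO over HT log2 fold change was 0.36 at E16.5 and -1.16 at E18.5, a difference of -1.52 (SE 0.32) that did not pass in edgeR (adjusted p = 0.9997). MurSAT1, a satellite name, was at 0.312, 2.91 and 7.35 CPM in HT and 3.01, 5.36 and 16.9 in KO at E16.5. At E18.5 it was at 46.2, 39.7 and 25.0 in HT and 89.9, 47.2 and 76.8 in KO, a direction opposite to that of GSAT_MM, and its difference was -0.31 (SE 0.66).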
